A study of Mus musculus with 9 samples.

Results

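The DEAD and DEAH box helicases are a family of ATP-driven enzymes named after a short motif of amino acids in their ATP-binding core. The genes described here carry a Ddx or Dhx symbol followed by a number. Ddx1, which was itself depleted, was set aside, as were Dhx9, the sensor genes Ddx58 and Dhx58, and the Y-linked Ddx3y. The rule gave 49 genes, 35 named Ddx and 14 named Dhx, of 24318 genes measured. RNA was sequenced from N2A cells (Neuro2A), a mouse neuroblastoma line, after transfection of scramble, EXOSC3 or DDX1 siRNA. Each condition had 3 libraries, 9 in all, from biological replicates. Apart from the siRNA the groups had the same culture and transfection reagent, and the labels call the scramble cells wild type and all cells untreated. Which EXOSC3 siRNA entered the sequenced cells and the sequence of the DDX1 siRNA are not given in the sources used here, so an effect of the siRNA itself and one of the loss of its target cannot be told apart.

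DEAD box proteins open short RNA duplexes locally or strip proteins from RNA, whereas many DEAH box proteins move along a strand and are switched on by partner proteins with a G-patch. Between them they serve ribosome assembly in the nucleolus, the spliceosome, mRNA export, translation and mRNA turnover. EXOSC3 is a cap subunit of the RNA exosome, the complex that degrades and trims RNA from its 3′ end, and DDX1 is a DEAD box protein.

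The deposited values were FPKM, fragments scaled for transcript length and library size, in 2 tables of 1 knockdown each with the same 3 scramble libraries. Each knockdown was compared with scramble in its own table, and because the comparisons share controls they are not independent. In the matching knockdown, Exosc3 was reduced to 15.5% ± 1.90 (SD, n = 3) and Ddx1 to 24.4% ± 2.99 (SD, n = 3) of the scramble mean. In scramble cells 8 of the neuroblastoma markers examined reached 1 FPKM and Th did not. Of 8 markers of other cells 2, Pecam1 and Cd68, also reached a mean of 1 FPKM. Gfap and Col1a1 had means above 0 but below 1 FPKM, and Ptprc, Col1a2, Alb and Epcam were listed at 0. FPKM hold no read numbers, so the depth is unknown and no counting interval is given.

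In scramble cells 46 of the 49 helicase transcripts passed the filter for testing, a mean of at least 1 FPKM. Their median was 23.8 FPKM, against 14.1 FPKM over all genes tested, and 43 of them reached 5 FPKM. The most abundant was Ddx5, a nuclear coregulator that also acts in splicing, at 516 ± 30.4 FPKM (SD, n = 3). Ddx3x, which promotes translation initiation, stood at 219 ± 4.98 FPKM and Ddx39b, a subunit of the mRNA export machinery, at 180.0 ± 3.36 FPKM (SD, n = 3 each). They were followed by Ddx21, a nucleolar protein of rRNA synthesis, at 146 ± 7.47 FPKM and by Dhx15, which takes spent spliceosomes apart, at 110.0 ± 3.51 FPKM (SD, n = 3 each). These 5 genes made up 49.4% of the summed FPKM of the family. At the other end of the tested range was Dhx34, a factor of nonsense-mediated decay, at 1.27 FPKM.

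The 3 genes below the filter were Ddx4, the germ cell helicase Vasa, Ddx43, another germ cell gene, and Ddx60, an interferon-induced gene. Ddx43 was listed at 0 in all 9 libraries, and its exons overlap 4930542C12Rik on the opposite strand over 15.9% of their length. Ddx4 lay between 0 and 0.107 FPKM and Ddx60 between 0 and 0.0163 FPKM in the siEXOSC3 table. The third germ cell helicase, Ddx25, which is known for its part in sperm formation, was present at 23.2 ± 0.442 FPKM (SD, n = 3) in scramble.

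**Figure D1:**
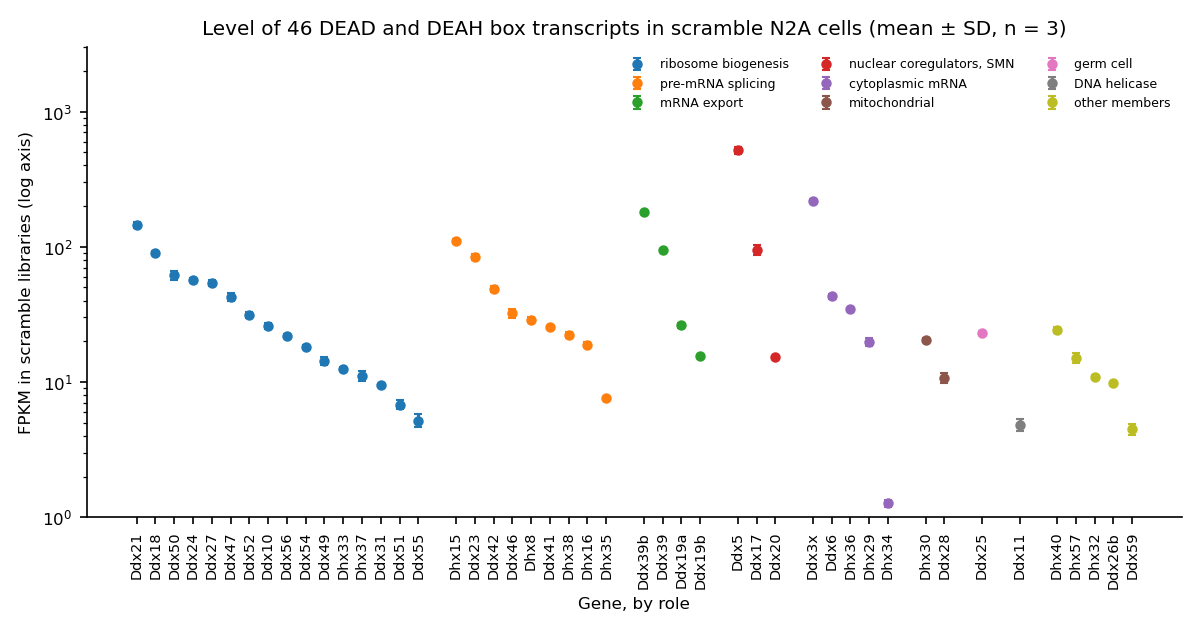
FPKM in scramble libraries on a log axis for the 46 helicase transcripts tested, ordered by level within each role (points, mean; bars, SD over 3 libraries). Ddx5 stands highest at 516 FPKM and Dhx34 lowest at 1.27 FPKM.

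Because many of these genes serve the nucleolus and spliceosome and might share promoter features, a window of 300 bases around each start, most of it upstream, was read from RefSeq on GRCm38.p6, and 44 of the 49 genes had one. The promoters of Ddx41 and Ddx46 are shown because these splicing helicases had the 2 largest falls of their role after EXOSC3 depletion. Capitals mark the motifs searched, on both strands. These were the E box (CACGTG), the CCAAT box, the GC box of Sp factors (GGGCGG), the ETS core (CCGGAAG), the YY1 site (AAGATGGCG), the palindromic BANP motif and the TATA box (TATAAA). Matches can share letters, as CCAAT and its complement do in the Ddx41 promoter.
Ddx41 (chr13:55536609-55536908, minus strand): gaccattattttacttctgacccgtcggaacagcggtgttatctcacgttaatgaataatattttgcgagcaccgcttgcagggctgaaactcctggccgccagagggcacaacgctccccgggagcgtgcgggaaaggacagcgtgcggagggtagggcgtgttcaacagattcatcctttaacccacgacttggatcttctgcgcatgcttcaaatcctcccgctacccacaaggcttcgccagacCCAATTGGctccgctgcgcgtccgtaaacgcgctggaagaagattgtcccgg
Ddx46 (chr13:55634749-55635048, plus strand): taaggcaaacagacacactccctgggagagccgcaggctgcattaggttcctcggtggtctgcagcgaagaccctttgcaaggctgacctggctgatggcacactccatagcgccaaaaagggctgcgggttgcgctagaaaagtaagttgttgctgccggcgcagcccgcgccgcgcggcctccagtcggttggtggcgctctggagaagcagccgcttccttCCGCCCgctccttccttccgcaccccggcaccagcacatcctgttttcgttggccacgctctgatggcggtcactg

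Of these motifs CCGGAAG, the core of sites bound by ETS factors, was the one whose share among the helicases stood furthest above that of all tested genes in proportion. It was found in 17 of 44 genes (38.64%), against 21.73% of 9072 tested genes with a window and 8.86% of all 32851 windows. In the ribosome biogenesis group 8 of 16 promoters held it. The GC box GGGCGG, at 72.73% against 70.34% of tested genes, and the CCAAT box, at 54.55% against 43.79%, were frequent in both. A match is a run of letters only, and no binding was measured. The 30 bases around the motif, in capitals on either strand, are given for 6 genes that differ in role and in response, namely the nucleolar Dhx37, Ddx54, Ddx27 and Ddx47, the abundant Ddx39b, and Ddx5.
Dhx37 (chr5:125434094-125434123, minus strand): gcatgcgcaacCCGGAAGtctcctagccag
Ddx54 (chr5:120613099-120613128, plus strand): ggccccgccctCTTCCGGgtctaagagccc
Ddx27 (chr2:167015300-167015329, plus strand): actcgctacgtCCGGAAGtggctgcttctt
Ddx47 (chr6:135011610-135011639, plus strand): cctcggccccaCTTCCGGagcccacgagca
Ddx39b (chr17:35241711-35241740, plus strand): gcgaaagcctgCTTCCGGctccttgcgcgt
Ddx5 (chr11:106789003-106789032, minus strand): ttggagccgcgCTTCCGGtgagttggtggt

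After EXOSC3 depletion the helicase transcripts lay mostly below scramble. Of the 46 tested, 16 (34.8%) decreased and 0 increased at a limma adjusted p-value under 0.05. Changes are differences of log2(FPKM + 1) with their standard errors (SE). Over all 11242 genes tested, 15.7% decreased and 16.7% increased, and in a fit of genes with a mean of at least 5 FPKM 18.7% decreased. At an unadjusted p under 0.05 the family had 22 lower genes and 1 higher gene, or 23 of 46, against 45.4% of all genes in either direction. The fold change was below 0 for 38 of 46 helicases (82.6%), against 51.9% of all genes. The median log2 fold change was -0.18, against -0.01 over all genes, and single values ran from -0.67 to 0.27. All 3 siEXOSC3 libraries lay below all 3 scramble libraries for 27 helicases (58.7%), against 25.9% of all genes, and above them for 3 helicases, against 23.8%.

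The count of 16 depended on single libraries. It became 7 without scramble replicate 1, 8 without siEXOSC3 replicate 1 and 9 without scramble replicate 2 or without scramble replicate 3. In these fits the decreased share of all genes also fell, to 5.18%, 7.72%, 8.28% and 7.17%. Without siEXOSC3 replicate 2 it was 21, with 2 increased, beside 22.3% and 21.2% of all genes. Against the scramble mean, the helicases had median log2 differences of -0.20, -0.11 and -0.23 in siEXOSC3 replicates 1, 2 and 3. Replicate 2 was thus nearest to scramble, and it also kept the most Exosc3, with 7.68 FPKM against 6.84 and 6.01 FPKM in replicates 1 and 3. A link between the helicase level and the remaining Exosc3 was not tested. The summed neuroblastoma markers stood at 385 to 436 FPKM in siEXOSC3 and 290.0 to 331 FPKM in scramble libraries. The 8 markers of other cells summed to 6.84 to 10.4 FPKM against 4.65 to 6.17 FPKM, mostly from Pecam1, with Ptprc, Col1a2, Alb and Epcam at 0 in both groups. The part of these shifts in the helicase changes was not tested. In bulk RNA fewer cells of a type and less RNA per cell cannot be told apart.

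**Figure D2:**
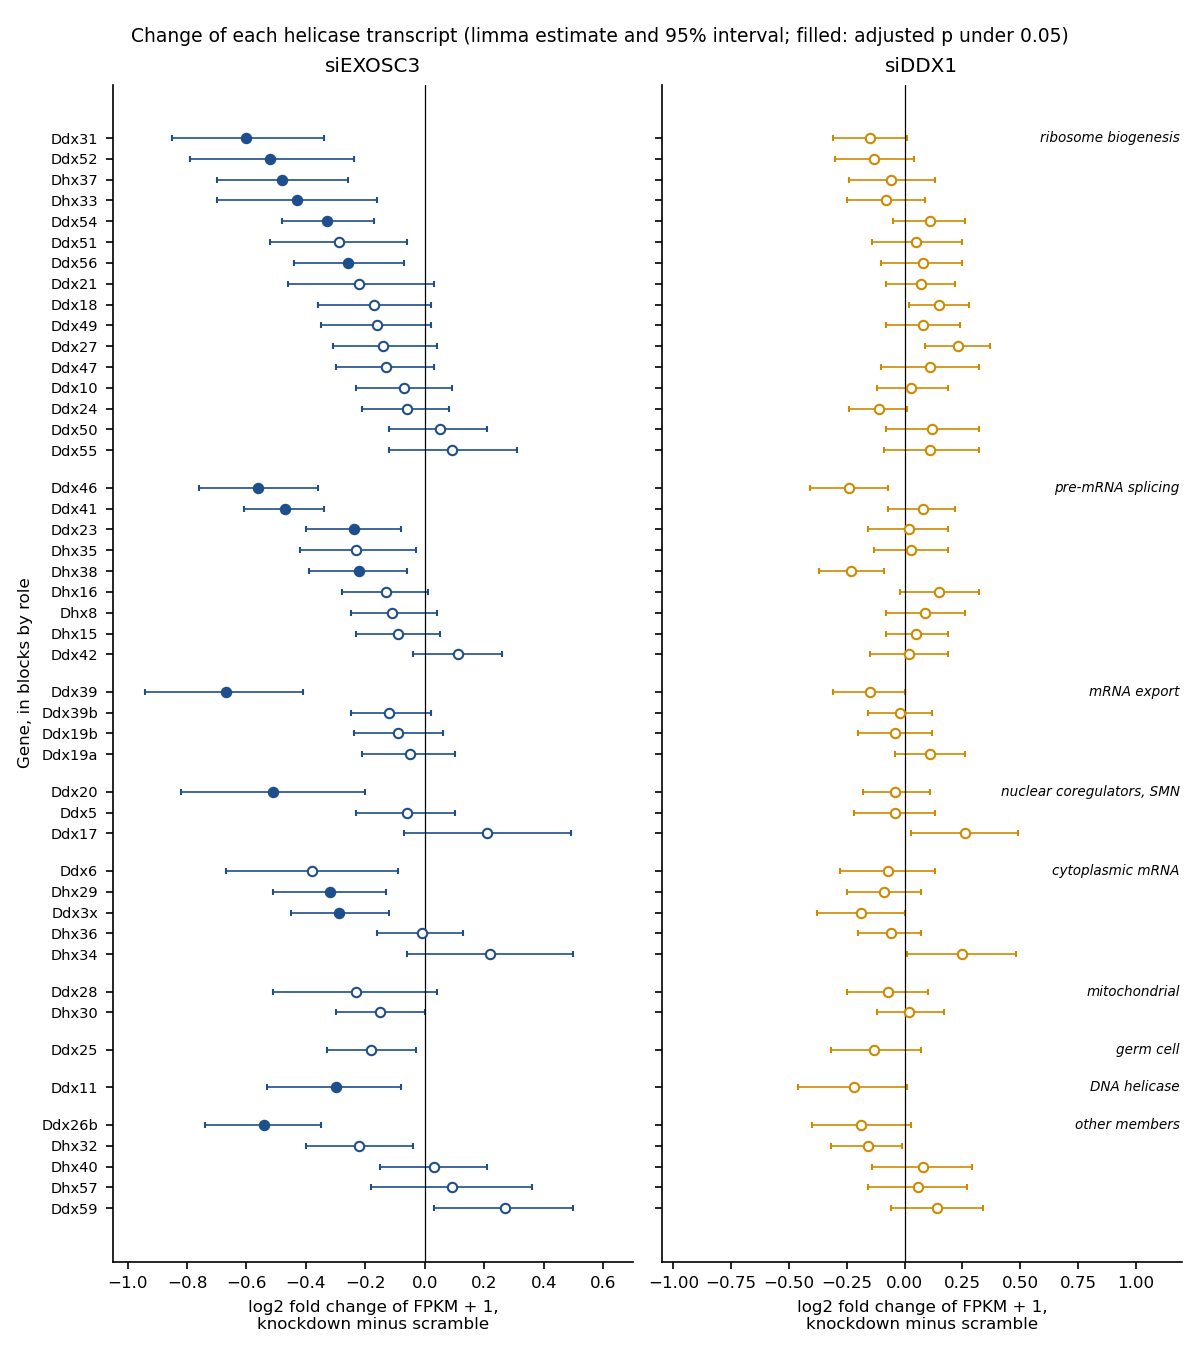
Log2 fold change of FPKM + 1, knockdown minus scramble, for 46 helicase transcripts in blocks by role, with 95% intervals (limma, 3 libraries against 3) and filled points for an adjusted p-value under 0.05. In siEXOSC3 cells 16 points are filled and all lie below 0, while in siDDX1 cells none is filled.

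Among the 16 ribosome biogenesis helicases, the largest role in the family, 6 decreased, against 15.7% of all genes tested, and the median log2 fold change was -0.19. The calls of Ddx52, Ddx56 and Dhx33 were lost in at least 1 fit without a single library, as given further on. Ddx31, a nucleolar helicase, stood at 9.64, 9.62 and 9.38 FPKM in scramble and at 6.20, 6.96 and 4.90 FPKM in siEXOSC3 replicates 1, 2 and 3. All 3 siEXOSC3 values were below scramble, at 63.0% ± 10.9 of its mean (SD, n = 3, log2 fold change -0.60, SE 0.111, limma adjusted p = 0.00664). Ddx52, which acts on the small-subunit precursor, measured 32.3, 31.8 and 29.3 FPKM in scramble and 22.0, 25.3 and 17.6 FPKM in siEXOSC3 cells. The groups did not overlap, and the widest fall was in replicate 3 (log2 fold change -0.52, SE 0.119, limma adjusted p = 0.0140).

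Dhx37, which remodels the small-subunit precursor and carries the CCGGAAG core shown above, had 11, 10.2 and 12 FPKM in scramble against 7.93, 8.32 and 6.73 FPKM in siEXOSC3 cells. Every siEXOSC3 library lay below every scramble library (log2 fold change -0.48, SE 0.0969, limma adjusted p = 0.00880). For Dhx33, which takes part in rRNA synthesis, the scramble values were 12.3, 12.2 and 13.1 FPKM and the siEXOSC3 values 9.45, 10.5 and 7.31 FPKM. It fell in each library, most in replicate 3 (log2 fold change -0.43, SE 0.118, limma adjusted p = 0.0249). Ddx54, a nucleolar helicase also known as a corepressor of nuclear receptors, had 17.4, 18.5 and 18.8 FPKM in scramble and 14.9, 14.1 and 13.9 FPKM in siEXOSC3 cells. Its siEXOSC3 values lay close together and below scramble (log2 fold change -0.33, SE 0.0679, limma adjusted p = 0.00942). Ddx56 of large-subunit assembly fell to 83.0% ± 7.79 (SD, n = 3) of scramble (limma adjusted p = 0.0401).

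The abundant nucleolar Ddx21 measured 154, 139 and 144 FPKM in scramble and 123, 147 and 108 FPKM in siEXOSC3 cells. Replicate 2 lay among the scramble values and the other two lay below, and the difference did not pass (log2 fold change -0.22, 95% interval -0.46 to 0.03, limma adjusted p = 0.145). Ddx21 passed without siEXOSC3 replicate 2 (-0.33, limma adjusted p = 0.0108) and with array weights (-0.25, limma adjusted p = 0.0201), and stood at -0.12 without replicate 3. Ddx51, just outside the threshold, had a log2 fold change of -0.29 (limma adjusted p = 0.0553), and passed with quantile normalization (0.0443), with array weights (0.00571) and without siEXOSC3 replicate 2 (0.0121). The other 8 genes of this role ranged from -0.17 for Ddx18 to 0.09 for Ddx55. Among them Ddx49 shares 29.8% of its exonic length with Homer3 on the other strand, which these nondirectional libraries cannot separate.

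In the splicing group 4 of 9 helicases decreased, with a median log2 fold change of -0.22, and for 8 of 9 all siEXOSC3 libraries lay below all scramble libraries, where over all genes tested 15.7% decreased and 25.9% lay wholly below. The calls of Ddx23 and Dhx38 were lost in several fits without a single library, as given further on. Ddx46, which prepares the branch site for recognition, stood at 32.3, 34.6 and 29.6 FPKM in scramble and at 23.5, 21.6 and 19.6 FPKM in siEXOSC3 cells. The groups were well apart, with 67% ± 5.99 (SD, n = 3) of the scramble level remaining (log2 fold change -0.56, SE 0.0873, limma adjusted p = 0.00370). Ddx41, a spliceosomal helicase also studied as a sensor of DNA, had the tightest replicates of the decreased genes. Its values were 25.4, 25.7 and 25.3 FPKM in scramble and 18.1, 18.2 and 17.8 FPKM in siEXOSC3 cells. The siEXOSC3 mean was 70.9% ± 0.905 (SD, n = 3) of the scramble mean (log2 fold change -0.47, SE 0.0595, limma adjusted p = 0.00178).

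Ddx23, a helicase of the tri-snRNP, fell to 84.6% ± 5.01 (SD, n = 3) of scramble (limma adjusted p = 0.0342). Dhx38, which remodels the spliceosome between its catalytic steps, fell to 85.1% ± 4.97 (SD, n = 3) (limma adjusted p = 0.0465). Dhx15, the most abundant splicing member, had 114, 107 and 108 FPKM in scramble and 101, 106 and 101 FPKM in siEXOSC3 cells. All its siEXOSC3 values were lower, by a margin that did not pass (log2 fold change -0.09, 95% interval -0.23 to 0.05, limma adjusted p = 0.271). The remaining 4 genes (Dhx8, Dhx16, Dhx35 and Ddx42) had log2 fold changes between -0.23 and 0.11, and none passed.

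Of the 4 mRNA export helicases, 1 decreased, where 15.7% of all genes did, and it was the largest fall of the family. Ddx39, a close paralog of Ddx39b, stood at 93.7, 91.7 and 96.2 FPKM in scramble and at 62.4, 66.8 and 47.8 FPKM in siEXOSC3 cells. Each siEXOSC3 library was far below scramble, at 62.8% ± 10.6 (SD, n = 3) of its mean (log2 fold change -0.67, SE 0.114, limma adjusted p = 0.00472). Its exons overlap Cd97 on the opposite strand over 17.4% of their length, and reads may also be divided between the paralogs, so the size of the fall is uncertain. Ddx39b had 179, 184 and 178 FPKM in scramble and 167, 169 and 162 FPKM in siEXOSC3 cells. Its libraries did not overlap either, but the difference was small (log2 fold change -0.12, 95% interval -0.25 to 0.02, limma adjusted p = 0.152). Ddx19a and Ddx19b, near-identical helicases of the nuclear pore between which reads may be split, had log2 fold changes of -0.05 and -0.09.

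Among the 3 genes of the nuclear coregulators and the SMN complex, 1 decreased, again beside 15.7% of all genes. Ddx20, the Gemin of the SMN complex that assembles snRNPs, had 15.5, 15.5 and 14.8 FPKM in scramble and 10.3, 13.2 and 8.31 FPKM in siEXOSC3 cells. All 3 siEXOSC3 values were lower but widely spread, with replicate 3 lowest (log2 fold change -0.51, SE 0.136, limma adjusted p = 0.0235). Ddx5 measured 514, 547 and 486 FPKM in scramble and 492, 491 and 495 FPKM in siEXOSC3 cells. Its groups overlapped, and the log2 fold change was -0.06 (95% interval -0.23 to 0.10, limma adjusted p = 0.504). Ddx17, the paralog and partner of Ddx5, had a log2 fold change of 0.21 (limma adjusted p = 0.218). It passed as increased without siEXOSC3 replicate 2 (0.36, limma adjusted p = 0.00850) and with array weights (0.29, limma adjusted p = 0.0247).

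Of the 5 helicases of cytoplasmic mRNA, 2 decreased (all genes, 15.7%) and the median was -0.29, but both calls were lost in several fits without 1 library, as given further on. Ddx3x stood at 222, 213 and 221 FPKM in scramble and at 178, 194 and 166 FPKM in siEXOSC3 cells. No library overlapped, and 82.0% ± 6.36 (SD, n = 3) of the scramble level remained (log2 fold change -0.29, SE 0.0731, limma adjusted p = 0.0196). Dhx29, which helps the small ribosomal subunit scan structured leaders, had 21.5, 18.8 and 19.4 FPKM in scramble and 15.0, 17.3 and 15.0 FPKM in siEXOSC3 cells. Replicate 2 was again nearest to scramble, though still below it (log2 fold change -0.32, SE 0.0842, limma adjusted p = 0.0225). Ddx6, a helicase of translational repression and decapping, lay just outside the threshold at -0.38 (limma adjusted p = 0.0524). The G-quadruplex helicase Dhx36 stood at -0.01 and Dhx34 at 0.22, and neither passed.

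In the smaller groups, Ddx26b had 9.75, 9.94 and 9.80 FPKM in scramble and 6.45, 5.78 and 7.14 FPKM in siEXOSC3 cells. This gene bears an older symbol: RefSeq lists it as Ints6l, a relative of an Integrator subunit. It fell in every library (log2 fold change -0.54, SE 0.0858, limma adjusted p = 0.00382). Ddx11, a DNA helicase of sister chromatid cohesion, had 5.32, 4.37 and 4.79 FPKM in scramble and 4.08, 3.60 and 3.47 FPKM in siEXOSC3 cells. The groups did not overlap but stood close together (log2 fold change -0.30, SE 0.0986, limma adjusted p = 0.0458). Ddx28 and Dhx30, which assemble the mitochondrial ribosome, had log2 fold changes of -0.23 (limma adjusted p = 0.166) and -0.15 (limma adjusted p = 0.107). The germ cell helicase Ddx25 stood at -0.18 (limma adjusted p = 0.0610). The highest value of the family was that of Ddx59, a gene of ciliary signalling, at 0.27 (95% interval 0.03 to 0.50, limma adjusted p = 0.0773), and the other 3 members (Dhx32, Dhx40 and Dhx57) lay between -0.22 and 0.09.

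**Figure D3:**
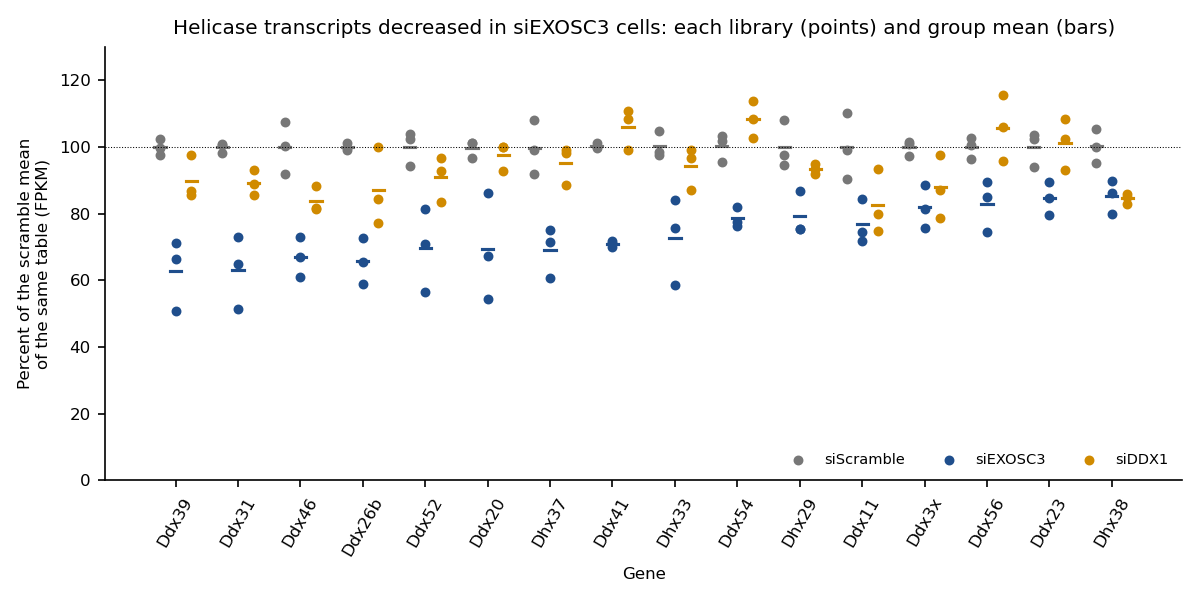
Percent of the scramble mean of the same table for the 16 helicase transcripts that decreased in siEXOSC3 cells (points, libraries; bars, group means; scramble values from the siEXOSC3 table). The siEXOSC3 libraries of Ddx41 sit together near 70.9%, those of Ddx20 are spread around 69.4%, and the siDDX1 libraries of most genes lie nearer to 100%.

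The 16 decreases were not equally firm. In all 6 fits that left out 1 library 7 of them passed: Ddx26b, Ddx31, Ddx39, Ddx41, Ddx46, Ddx54 and Dhx37. Ddx52 was lost only without scramble replicate 1 (limma adjusted p = 0.0585). Dhx29 was lost without scramble replicate 1 (limma adjusted p = 0.0998), scramble replicate 3 or siEXOSC3 replicate 1. Ddx20, Ddx3x and Dhx33 were each lost without siEXOSC3 replicate 1 or any 1 of the scramble libraries, with highest limma adjusted p-values of 0.0796, 0.0826 and 0.0893. Ddx23 was lost without siEXOSC3 replicate 1 or 3 or scramble replicate 1 or 2 (highest limma adjusted p = 0.128). Ddx56 (highest 0.140) and Dhx38 (highest 0.147) kept the call only without siEXOSC3 replicate 2, and Ddx11 (highest 0.177) lost it in every such fit. Without the filter on low FPKM 11 of 48 members decreased, against 7.63% of all genes, and Ddx11, Ddx20, Ddx56, Dhx33 and Dhx38 no longer passed. Without the intensity trend Ddx23, Ddx56 and Dhx38 did not pass, with quantile normalization Ddx56 and Dhx38 did not, and with centring on the median Ddx11 and Dhx38 did not. With the replicate block 7 of the 16 calls were lost, as given further on. The fold change of all 16 stayed below 0 throughout. Besides Ddx17, Ddx21 and Ddx51, calls were gained without siEXOSC3 replicate 2 by Ddx6, Ddx18, Ddx28 and Dhx32, which decreased, and by Ddx59, which increased. With array weights, which called 24.4% of all genes decreased and 22.9% increased, the same 5 genes passed, as did Ddx27, Ddx47, Ddx49, Dhx30 and Dhx35, all lower.

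The motifs were also counted by call. Of the 12 decreased helicases with a promoter window, 2 held the CCGGAAG core, Ddx54 and Dhx37, and of the 29 other tested helicases with a window 15 did. The GC box was in 9 of 12 and 21 of 29, and the CCAAT box in 5 of 12 and 16 of 29. These are counts of letters with no test.

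Helicases outside the Ddx and Dhx names and the proteins that activate or bind these enzymes were counted from lists. Of 17 other RNA helicases tested, 6 decreased and 0 increased, with a median log2 fold change of -0.18. At an unadjusted p under 0.05, 9 were lower and 1 higher. The shares over all genes were 15.7% decreased, 16.7% increased and 45.4% at an unadjusted p under 0.05 in either direction. Upf1, the helicase of nonsense-mediated decay, had 29.6, 27.7 and 30.2 FPKM in scramble and 21.0, 24.1 and 18.3 FPKM in siEXOSC3 cells (log2 fold change -0.45, limma adjusted p = 0.0113). Dicer1, the microRNA-processing enzyme, stood at -0.39 (limma adjusted p = 0.0112) and Eif4a3, the DEAD box core of the exon junction complex, at -0.32 (limma adjusted p = 0.0180). Without scramble replicate 1 none of the 17 passed, and without siEXOSC3 replicate 1, scramble replicate 2 or scramble replicate 3 the counts were 2, 3 and 2, and the decreased shares of all genes in these 4 fits were 5.18%, 7.72%, 8.28% and 7.17%.

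Of the 22 helicase cofactors 12 decreased and 0 increased, with a median log2 fold change of -0.23, and 14 were lower and 0 higher at an unadjusted p under 0.05. The same shares over all genes, 15.7%, 16.7% and 45.4%, apply. Pinx1, a G-patch protein of the nucleolus and telomerase, had 18.5, 16.9 and 13.8 FPKM in scramble and 8.74, 12.4 and 6.33 FPKM in siEXOSC3 cells (log2 fold change -0.81, limma adjusted p = 0.0180). Gpatch3, another G-patch protein, stood at -0.68 (limma adjusted p = 0.00980). Utp14a, the nucleolar partner of Dhx37, fell by 0.58 on the log2 scale (limma adjusted p = 0.00577), and so did the G-patch splicing factor Rbm10 (limma adjusted p = 0.0178). The counts without siEXOSC3 replicate 1 and scramble replicates 1, 2 and 3 were 4, 3, 4 and 6, beside 7.72%, 5.18%, 8.28% and 7.17% of all genes decreased in those fits.

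After DDX1 depletion the helicase transcripts stayed close to scramble. At a limma adjusted p-value under 0.05, 0 of 46 increased and 0 decreased, against 5.61% and 5.03% of the 11104 genes tested. At an unadjusted p under 0.05, 4 were higher and 5 lower, or 9 in all, against 30.1% of all genes. With limma array weights 6 increased and 7 decreased, where 22.1% and 22.3% of all genes did. The median log2 fold change was 0.02, against 0.00 over all genes, and single values ran from -0.24 to 0.26, a range without the larger falls seen after EXOSC3 depletion. All 3 siDDX1 libraries lay above scramble for 4 helicases and below for 6, against 17% and 17.8% of all genes. Without siDDX1 replicate 3, 3 helicases increased and 5 decreased, against 16.4% and 15.4% of all genes.

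The lowest values belonged to splicing helicases that had also fallen in siEXOSC3 cells. Ddx46 had 32.1, 34.3 and 29.3 FPKM in scramble and 26.0, 28.2 and 26.1 FPKM in siDDX1 cells. Its siDDX1 libraries lay below scramble, at 83.9% ± 3.84 (SD, n = 3) of its mean, and did not pass (log2 fold change -0.24, SE 0.0738, limma adjusted p = 0.0707). Dhx38 had 22.3, 21.2 and 23.3 FPKM in scramble and 18.4, 19.1 and 18.9 FPKM in siDDX1 cells. The groups did not overlap, and the adjusted p was just outside the threshold (log2 fold change -0.23, SE 0.0626, limma adjusted p = 0.0525). The highest were Ddx17, at 0.26 (limma adjusted p = 0.124), Dhx34, at 0.25 (limma adjusted p = 0.148), and the nucleolar Ddx27, at 0.23 (limma adjusted p = 0.0532). Calls near the threshold changed with the settings: Dhx38 passed in the fit of genes with a mean of at least 5 FPKM (limma adjusted p = 0.0473) and with the GC and length correction (limma adjusted p = 0.0291), and Ddx27 passed with centring on the median (limma adjusted p = 0.0342). With array weights all 5 passed, and without siDDX1 replicate 3 Ddx46 (limma adjusted p = 0.0485), Dhx38 (0.0255), Ddx17 (0.00591) and Ddx27 (0.0364) did. With the replicate block Ddx46, Ddx27 and Ddx17 passed (limma adjusted p = 0.0386, 0.0317 and 0.045). These genes were chosen after their values were seen.

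Values after DDX1 depletion are given for 3 of the helicases that decreased after EXOSC3 depletion. Ddx39 had 93.0, 91.0 and 95.1 FPKM in scramble and 90.8, 80.6 and 79.5 FPKM in siDDX1 cells (log2 fold change -0.15, limma adjusted p = 0.165). It passed as decreased with array weights (-0.19, limma adjusted p = 0.0117). Ddx31 stood at 8.09, 8.81 and 8.41 FPKM against 9.56, 9.55 and 9.27 FPKM in scramble (log2 fold change -0.15, limma adjusted p = 0.190). Both genes had all siDDX1 libraries below scramble. Ddx41, at 27.9, 27.3 and 25 FPKM against 25.2, 25.5 and 25 FPKM, did not, and its log2 fold change was 0.08 (limma adjusted p = 0.430).

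Over the 16 genes that decreased in siEXOSC3 cells, the median log2 difference from scramble was -0.41, -0.31 and -0.45 in the siEXOSC3 libraries. It was -0.14, -0.11 and -0.06 in the siDDX1 libraries, where all helicases tested had 0.02, 0.01 and -0.01. The siEXOSC3 and the shared scramble libraries chose these genes, so neither set of values is independent of the choice. The difference between the knockdowns was not tested, since the tables were scaled separately and the scramble libraries are shared.

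By role, the siDDX1 medians were 0.07 for the 16 ribosome biogenesis helicases, 0.03 for the 9 splicing helicases and -0.07 for the 5 of cytoplasmic mRNA. Of the abundant members, Ddx5 had 510.0, 542 and 480.0 FPKM in scramble and 486, 514 and 485 FPKM in siDDX1 cells (log2 fold change -0.04, 95% interval -0.22 to 0.13). Its groups overlapped, as did those of Ddx39b (-0.02), Ddx21 (0.07) and Dhx15 (0.05). Ddx3x measured 220.0, 212 and 219 FPKM in scramble and 171, 189 and 212 FPKM in siDDX1 cells. Replicate 3 reached the scramble values and the other two did not (log2 fold change -0.19, limma adjusted p = 0.164). Without replicate 3, or with array weights, it passed (limma adjusted p = 0.0124 and 0.00794). Among the 17 other RNA helicases and the 22 cofactors 0 passed in either direction by limma, with 3 of each list lower and 0 higher at an unadjusted p under 0.05. Over all genes 5.61% increased, 5.03% decreased and 30.1% had an unadjusted p under 0.05.

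**Figure D4:**
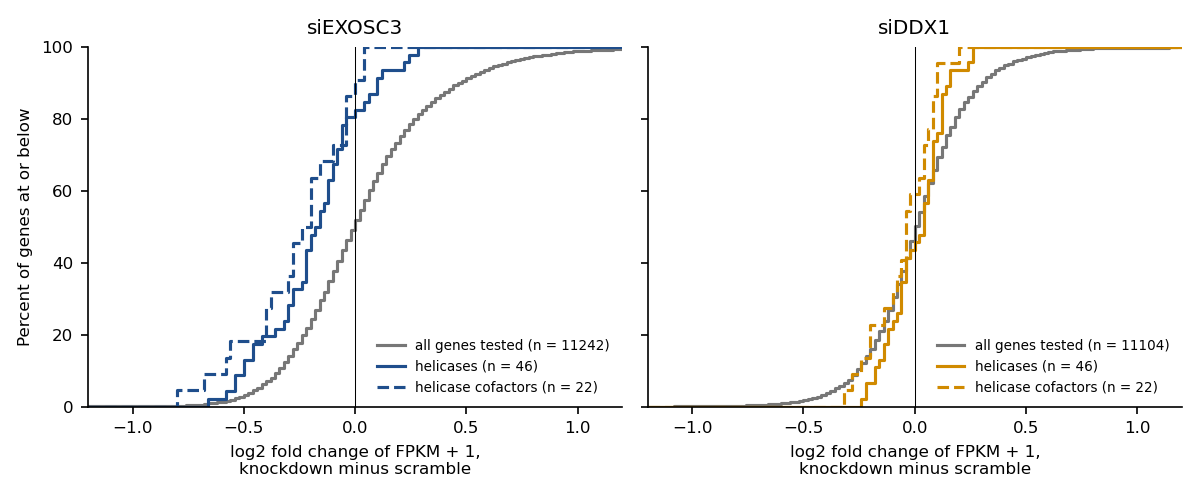
Percent of genes at or below each log2 fold change of FPKM + 1, knockdown minus scramble, for all genes tested (grey), the 46 helicases (solid colour) and the 22 helicase cofactors (dashed). In siEXOSC3 cells the helicase curve lies left of all genes, with a median of -0.18 against -0.01, and in siDDX1 cells the curves cross near 0, with medians of 0.02 and 0.00.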

How the data were processed

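RNA was extracted with TRIzol, depleted of rRNA with Ribo-zero and made into nondirectional libraries. Alignment by the authors was to mm9 (TopHat2 version 2.1.0, with SAMtools), and they deposited FPKM per gene and library from Cuffdiff version 2.2.1, per the submitters' processing notes. The annotation and the normalization given to Cuffdiff are not given in the sources used here. The scramble columns differ between the 2 tables by constant factors of 1.00793, 1.00782 and 1.01188, so tests stay within a table.

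From the deposited FPKM, log2(FPKM + 1) was fitted in limma (3.58.1, R 4.3.3; lmFit, then eBayes with trend) without covariates, where the mean over a table's 6 libraries reached 1 FPKM. Two-sided p-values were adjusted over all genes tested (Benjamini-Hochberg) and called under 0.05. This scale understates the fold changes of low genes. A single gene cannot go below p = 0.1 in an exact permutation test of 3 against 3. The paper gives a target for the reads per sample, but the depth reached is unknown, so the spread over 3 libraries alone sets the precision. Libraries were grouped by their titles. The level of 1 marker gene is not reported here.

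Values in each library are given for up to 12 decreased members per table by fold change and the 5 most abundant, and up to 2 members of roles with none. Up to 3 called genes are named per further list. Other names were added after their values were seen. The members and lists were chosen with earlier results of these data known. Alternatives changed the pseudocount (0.1), the filter (none, or 5 FPKM), the scaling (quantile, or median-centred libraries), the eBayes trend, the weights (array weights), the design (replicate block), the call (0.01), GC and length (loess correction, span 0.3) and the libraries, each left out once. The fit was tested on simulated data. Exon overlaps came from GENCODE vM1 on NCBIM37, the sequence of mm9, where all 49 genes were found. Promoters came from RefSeq on GRCm38.p6. Figures were drawn with matplotlib version 3.10.9.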

Additional observations from a re-analysis of the deposited data

Results flagged for a closer look

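Dhx16, the DEAH box helicase that activates the spliceosome, was the 1 tested member whose libraries moved to opposite sides of scramble in the 2 knockdowns. Over all genes tested, 25.9% lay wholly below scramble in siEXOSC3 and 17% wholly above it in siDDX1 cells. For how many genes both held was not counted. It had 18.7, 19.6 and 18.2 FPKM in scramble and 17.2, 17.2 and 16.9 FPKM in siEXOSC3 cells, all below. In the other table it had 18.6, 19.5 and 18 FPKM in scramble and 22.9, 19.9 and 19.9 FPKM in siDDX1 cells, all above. The log2 fold changes were -0.13 (limma adjusted p = 0.142) and 0.15 (limma adjusted p = 0.208), 0.28 apart. Neither passed, and the difference was not tested.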

How the results depend on the processing

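The helicase median in siEXOSC3 cells stayed between -0.22 and -0.13 in every alternative run, and the counts of decreased members without 1 library ran from 7 to 21 and of increased members from 0 to 2. With array weights 27 decreased and 2 increased, where 24.4% and 22.9% of all genes did. At an adjusted p under 0.01, 7 decreased, and the share of all genes at that threshold was not counted. Other RNA helicases had 10 decreased and 1 increased with array weights, 0 decreased at 0.01, and 0 to 8 decreased and 0 to 1 increased without 1 library. Cofactors had 3 decreased at 0.01 and 3 to 14 without 1 library. In siDDX1 cells array weights gave 6 increased and 7 decreased members, 4 decreased other helicases and 5 decreased cofactors. Of all genes, 22.1% increased and 22.3% decreased in that fit. Centring gave 1 increased member, Ddx27, and a mean of at least 5 FPKM or the GC and length correction 1 decreased, Dhx38, and 1 decreased other helicase each. Without 1 library 0 to 3 members increased and 0 to 5 decreased, as did 0 to 2 other helicases and 0 to 4 cofactors. The siDDX1 median was -0.012 with quantile normalization, 0.047 with centring, -0.001 with array weights and from -0.001 to 0.028 without 1 library.

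To see whether the numbers pair the samples, each knockdown library's deviation from its group mean was correlated with that of the same-numbered scramble library. The correlations were 0.035, -0.31 and -0.126 in siEXOSC3 and -0.012, 0.379 and 0.372 in siDDX1 cells. Replicates 2 and 3 of siDDX1 matched their own number best, and no siEXOSC3 replicate did. With 3 libraries per group this does not settle whether the numbers pair the samples. With the replicate block 9 members decreased in siEXOSC3 cells, and Ddx11, Ddx23, Ddx3x, Ddx56, Dhx29, Dhx33 and Dhx38 no longer passed. In siDDX1 cells the block gave 2 increased members, Ddx17 and Ddx27, 1 decreased, Ddx46, and 2 decreased other helicases. The shares of all genes called with the block were not counted, so these counts cannot be set against them.

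Directions turned only where the comparison had not passed. With the GC and length correction Ddx5 stood at 0.004 in siEXOSC3 and 0.018 in siDDX1 cells, and Ddx20 at 0.006 and Ddx23 at -0.000 in siDDX1 cells. In siDDX1 cells quantile normalization gave -0.010 for Ddx21, -0.033 for Ddx23 and -0.018 for Dhx15. Centring gave 0.007 and array weights 0.001 for Ddx39b, and array weights -0.033 for Ddx56. Without 1 library Ddx23 ran from -0.035 to 0.075 and Ddx39b from -0.05 to 0.021. The cause of these shifts was not tested. Depth is unknown, and the array weights stopped before convergence in at least 1 fit.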
